A study of Mus musculus with 6 samples.

Results

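The genes described here encode the cytosolic ribosomal proteins, the protein components of the ribosomes that translate nuclear messages. They were taken from the list of measured genes by symbol: names beginning with Rpl or Rps followed by a number and at most a short suffix, together with Rpsa, Rplp0, Rplp1 and Rplp2, and annotated as protein coding. The symbol rule matched 85 genes, 3 of these (Rps4l, Rps3a2 and Rps3a3) were annotated as pseudogenes and left out, and 82 remained of the 15898 genes listed. Large subunit proteins accounted for 50 of them and small subunit proteins for 32. All 82 passed the filter on low counts, as did 15477 genes in all.

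The RNA came from tumour-infiltrating CD8+ T cells of mice with B16F10 melanomas. The IL-10/Fc group had 4 libraries, from mice in which IL-10/Fc (interleukin-10 fused to an antibody Fc part, 20 µg) was injected beside the tumour. The PBS group had 2 libraries, from mice given the buffer in the same way. Both groups had 4 injections starting on day 10 and ending before harvest on day 18.

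What the groups shared limits what the comparison covers. Every mouse was C57BL/6, had 4 Gy of total body irradiation, and received naive Thy1.1+ PMEL T cells before the tumour and activated Thy1.2+ PMEL CD8+ T cells on day 10. The genotype is given as B6.Cg-Thy1a/Cy with the transgene Tg(TcraTcrb)8Rest/J, the PMEL T cell receptor, which recognises a melanocyte antigen. The 500 cells sorted per library were Thy1.1+PD-1+TIM-3+CD8+, that is, cells of the first transfer with markers of terminal exhaustion, so the PBS group also carried the second transfer. The labels number the replicates without saying that each came from its own mouse, so the spread between them may be technical.

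A ribosome is assembled from ribosomal RNA and about equal amounts of each ribosomal protein, with a large subunit that forms peptide bonds and a small subunit that reads the message. The transcripts of these genes are short and abundant, and most begin at their 5′ end with a terminal oligopyrimidine (TOP) tract, a run of C and T bases. The kinase complex mTORC1 promotes the translation of TOP messages, in part through the protein LARP1, which binds their 5′ ends. T cells raise ribosome production when they are activated, and the study's comparison addresses what IL-10/Fc does to the transcriptome of exhausted T cells.

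Depth was 28235203 to 36941814 counts in the IL-10/Fc libraries and 26738871 to 28774401 in the PBS libraries. Markers of CD8 T cells summed to 12722 to 14340 CPM (counts scaled to the same library total) in IL-10/Fc and 6867 to 10298 CPM in PBS, with all 8 genes of the list detected. Of these, 7 had log2 fold changes of IL-10/Fc over PBS above 0 and 1 below. The 1 below was Pdcd1, which encodes the sort marker PD-1, at -0.64. It had 700 to 1112 CPM in IL-10/Fc, against 1578 and 1286 CPM in PBS. Havcr2, which encodes the sort marker TIM-3, lay at 0.18 with overlapping groups. PBS replicate 1 stood apart in several of the values below; its Cd8a level was 910 CPM, against 2896 to 3161 CPM in IL-10/Fc and 2292 CPM in PBS replicate 2. Genes marking macrophages and monocytes (12 of 12 listed) summed to 141 to 597 CPM in IL-10/Fc and 236 to 387 CPM in PBS, with Mrc1 at 0 in both PBS libraries. Their log2 fold changes of IL-10/Fc over PBS were above 0 for 10 and below for 2, with a median of 1.90, where 50.7% of all genes were below 0. The 2 below were Lyz2 (40.3 and 301 CPM in PBS replicates 1 and 2) and Apoe (108 and 12.9 CPM). Natural killer genes (5 of 6) summed to 116 to 519 CPM in IL-10/Fc and 76.3 to 109 CPM in PBS. Fcer1g alone had 84.6 to 375 CPM in IL-10/Fc and 34.4 to 40.7 CPM in PBS. The list was mixed, with 3 genes above 0 and 2 below, Klrb1c at -4.26 and Eomes at -0.80 on the log2 scale. Klrb1c had 10.1 CPM in PBS replicate 1 and 0.0654 CPM in PBS replicate 2. Dendritic cell and MHC class II genes (7 of 8) summed to 172 to 1915 CPM in IL-10/Fc and 228 to 310 CPM in PBS. This list was mixed too, with 5 genes above 0 and 2 below, Zbtb46 at -1.62 and Xcr1 at -0.16 on the log2 scale. Zbtb46 had 4.76 to 21.7 CPM in IL-10/Fc, against 61.0 and 23.3 CPM in PBS. B cell genes (2 of 6) and melanoma genes (4 of 7) stayed under 10 CPM in sum in every library; the 2 B cell genes summed to 2.25 to 7.19 CPM in IL-10/Fc and 0.408 to 1.37 CPM in PBS, and the melanoma genes to 4.76 to 9.04 CPM in IL-10/Fc and 0.645 to 6.34 CPM in PBS. The part of these other cells in the results was not tested, and in bulk libraries fewer cells of a type and less RNA per cell cannot be told apart.

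The ribosomal protein genes took a smaller share of the counts in IL-10/Fc than in PBS, and most of that gap went away when the libraries were scaled for composition. They held 4.40%, 4.63%, 4.26% and 4.56% of all counts in IL-10/Fc replicates 1 to 4, against 5.78% and 5.09% in PBS replicates 1 and 2. The means were 4.46% ± 0.164 in IL-10/Fc (SD, n = 4) and 5.44% ± 0.487 in PBS (SD, n = 2), a log2 ratio of -0.29. Every IL-10/Fc library lay below both PBS libraries on this scale. Of protein-coding counts without mitochondrial genes, the share was 5.10% to 5.58% in IL-10/Fc and 6.12% to 6.96% in PBS.

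Scaling by the trimmed mean of M values (TMM), which sets the bulk of genes equal between libraries, gave factors of 0.950 to 0.983 in IL-10/Fc and 1.06 to 1.10 in PBS. The summed level of the ribosomal protein genes was then 46062, 48419, 43365 and 47997 CPM in IL-10/Fc, against 52537 and 47904 CPM in PBS. IL-10/Fc replicates 2 and 4 now lay above PBS replicate 2, and PBS replicate 1 was the highest of the 6. The means were 46461 ± 2305 CPM in IL-10/Fc (SD, n = 4) and 50221 ± 3276 CPM in PBS (SD, n = 2), with a log2 ratio of -0.11. Without PBS replicate 1 that ratio was -0.04, and without PBS replicate 2 it was -0.18. The choice of scaling moved the median fold change of all 15477 genes tested by -0.17 on the log2 scale, and the 10 most abundant genes of a library took 11.8% to 13.2% of counts in IL-10/Fc and 9.31% to 10.8% in PBS. Their part in the lower share of the ribosomal protein genes was not tested.

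Both subunits were lower by share of counts, and by about the same amount. Large subunit genes took 2.50%, 2.64%, 2.43% and 2.58% of counts in IL-10/Fc, against 3.33% and 2.90% in PBS. Small subunit genes took 1.90%, 1.99%, 1.84% and 1.98% of counts in IL-10/Fc, against 2.46% and 2.195% in PBS. On this scale each subunit was lower in every IL-10/Fc library than in either PBS library. The ratio of large to small subunit counts was 1.31, 1.32, 1.32 and 1.31 in IL-10/Fc, against 1.35 and 1.32 in PBS, and PBS replicate 2 lay within the range of IL-10/Fc. This ratio averaged 1.32 ± 0.00875 in IL-10/Fc (SD, n = 4) and 1.34 ± 0.0235 in PBS (SD, n = 2), a log2 difference of -0.02. Scaling cannot change it, since it is taken within a library.

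**Figure D1:**
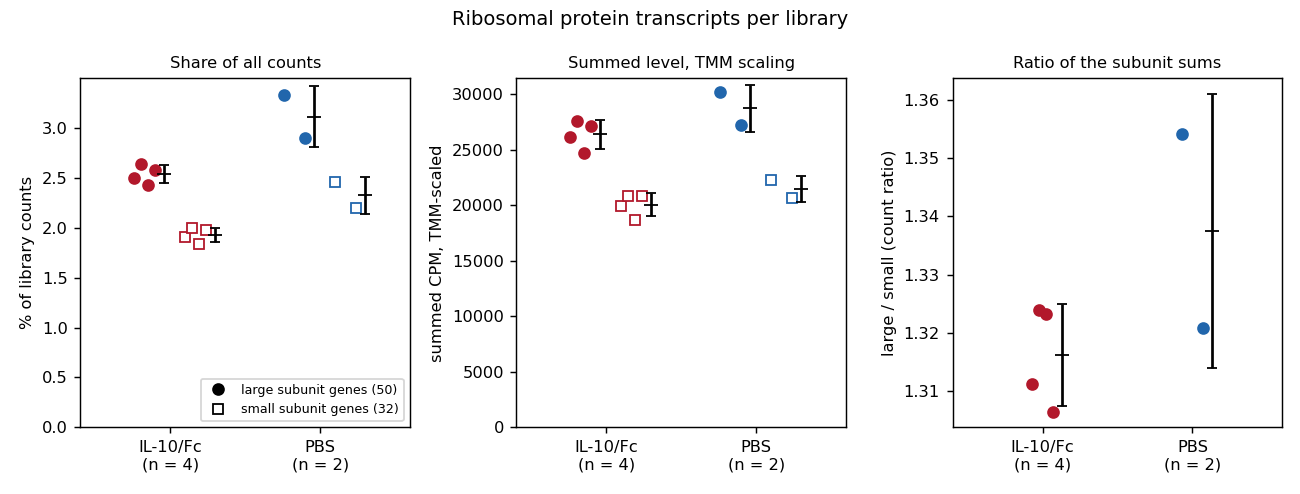
Share of library counts (left, percent), TMM-scaled summed CPM (middle) and the large-to-small count ratio (right) for the 50 large subunit genes (filled circles) and 32 small subunit genes (open squares), each point 1 library, with IL-10/Fc in red and PBS in blue and bars showing mean ± SD. The IL-10/Fc shares lie at 2.43% to 2.64% (large) and 1.84% to 1.99% (small), below both PBS libraries, while the TMM-scaled sums and the ratio overlap between groups.

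Gene by gene, no ribosomal protein gene passed 0.05 after Benjamini-Hochberg adjustment under either scaling (edgeR, quasi-likelihood), and the lower side held more of them than the higher side. Under TMM, 0 of 82 passed the adjusted threshold, where 0.00646% of all genes tested did in either direction; the smallest adjusted p was 0.148. By library size alone 0 of 82 passed, where 0% of all genes did, and the smallest adjusted p was 0.118. At an unadjusted p under 0.05 with TMM, 11 of 82 (13.4%) were lower, against 5.52% of all genes, and 0 of 82 were higher, against 7.20% of all genes. The DESeq2 Wald test put 11 lower and 0 higher at an unadjusted p under 0.05, where it put 6.38% of all genes lower and 9.63% higher. It called 1 of 82 lower (Rpl3) and 0 higher at an adjusted p under 0.05, where it called 1.54% of all genes lower and 3.34% higher. The authors' deposited table likewise had 1 of 82 lower (Rpl3) and 0 higher at that threshold, where it had 1.72% of all genes lower and 3.57% higher.

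The count of 11 depended on single libraries. It was 4 without IL-10/Fc replicate 1 and 6 without IL-10/Fc replicate 3, and it was 8 without either of the other IL-10/Fc libraries. The share of all genes called in these fits is not given, so the counts cannot be set against it. Leaving out a PBS library leaves 1 in its group, so this section gives effect sizes alone for those fits. Without PBS replicate 1 the median log2 fold change was 0.01 for the large and -0.04 for the small subunit. By library size alone 35 of 82 (42.7%) were lower at an unadjusted p under 0.05, against 10.6% of all genes, and 0 were higher, against 4.21% of all genes.

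The fold changes were small under both scalings. Under TMM the median log2 fold change was -0.05 over the 82 ribosomal protein genes and -0.01 over all genes tested; by library size alone it was -0.23 and -0.18. The ribosomal protein genes thus lay 0.05 below the median of all genes on either scale, a gap that under TMM was 0.13 without PBS replicate 2, 0.08 without IL-10/Fc replicate 2 and 0.02 without IL-10/Fc replicate 3. Under TMM 72 of 82 were within 0.25 of 0 on the log2 scale and 55 within 0.15. A log2 fold change below 0 was found for 54 of 82 under TMM, against 50.7% of all genes, and for 80 of 82 by library size, against 63.2% of all genes.

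The subunits differed little in these medians. Under TMM the median log2 fold change was -0.04 for the large and -0.09 for the small subunit, and by library size alone -0.22 and -0.27. Genes below 0 under TMM were 29 of 50 in the large and 25 of 32 in the small subunit. Under TMM all IL-10/Fc libraries lay below both PBS libraries for 20 of 82 genes, 10 of each subunit, against 11.5% of all genes. All IL-10/Fc libraries lay above both PBS libraries for 2 of 82, Rpl17 and Rpl39, against 12.1% of all genes. By library size alone the groups did not overlap for 53 lower genes (30 large, 23 small), against 19.8% of all genes, and for 0 higher ones, against 7.24% of all genes. Without PBS replicate 1 the TMM median of the large subunit was 0.01 and that of the small subunit -0.04.

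**Figure D2:**
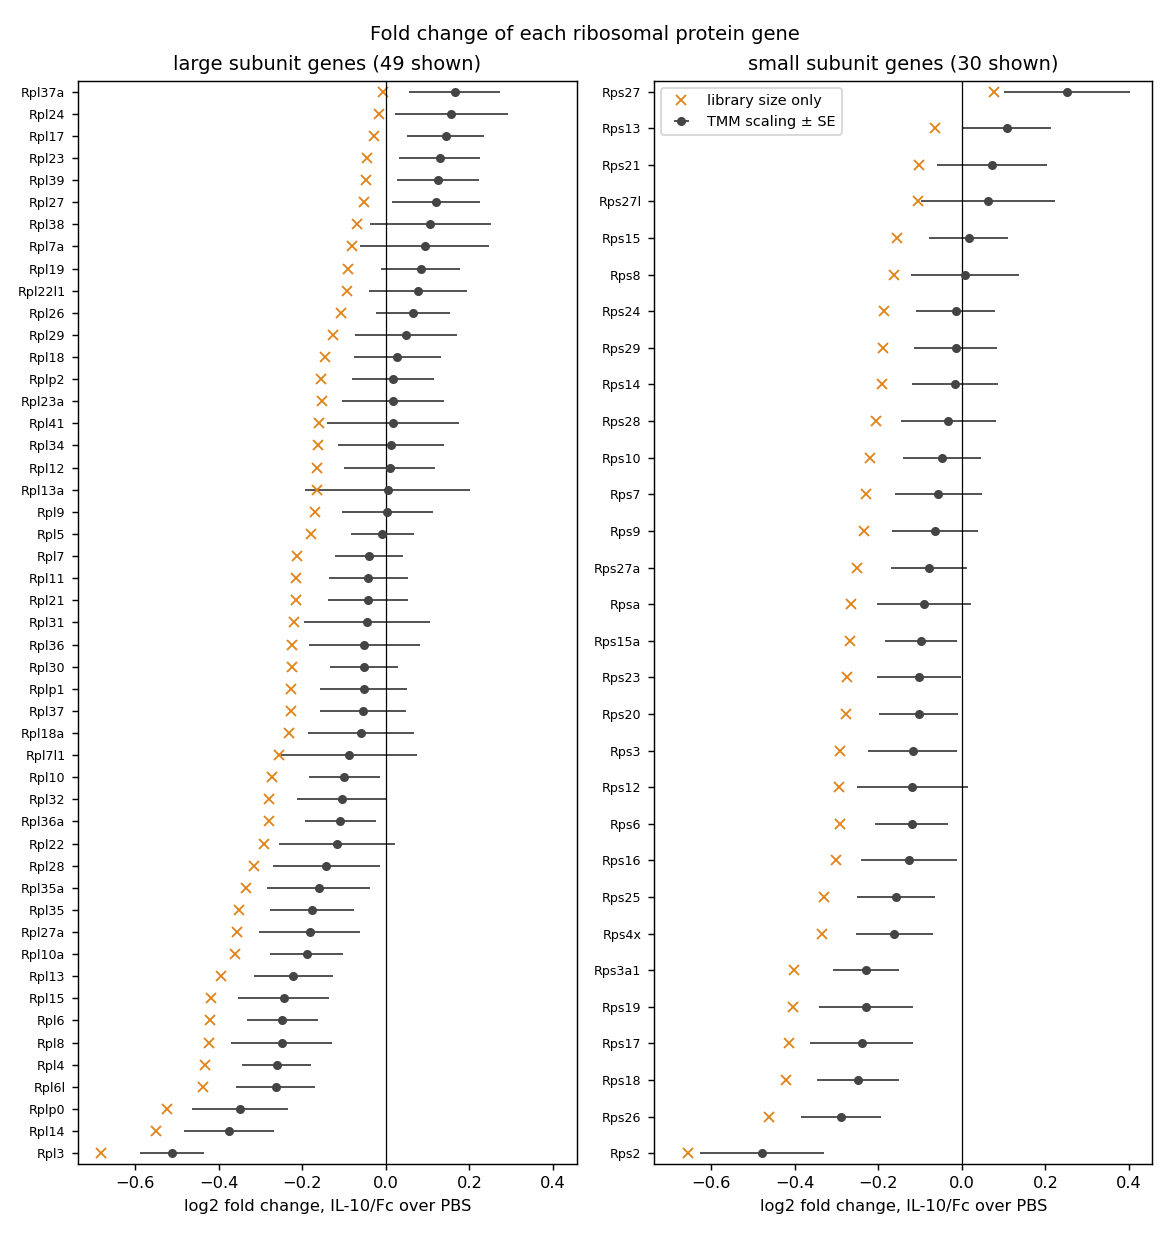
Log2 fold change of IL-10/Fc over PBS for each large subunit gene (left, 49 shown) and small subunit gene (right, 30 shown); filled points with bars are edgeR estimates ± SE under TMM and crosses the estimates by library size alone. Rpl39l, at 3.25 CPM or less in every library, and 2 small subunit genes are not drawn; under TMM the estimates run from -0.51 (Rpl3) to 0.25 (Rps27), and under library size nearly all lie left of 0.

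Among large subunit genes the difference was clearest for Rpl3, whose protein is a core component near the peptidyl transferase centre and joins early in large subunit assembly. Rpl3 (ENSMUSG00000060036, GRCm38 chr15:80077794-80091868, minus strand) had 560, 592, 553 and 572 CPM in IL-10/Fc, against 799 and 824 CPM in PBS. The groups were separated by more than the spread within either of them. The mean was 569 ± 16.9 CPM in IL-10/Fc (SD, n = 4) and 811 ± 17.7 CPM in PBS (SD, n = 2). The log2 fold change was -0.51 (SE 0.08), with an unadjusted p of 0.000393 and an adjusted p of 0.148 by edgeR. The DESeq2 Wald test gave the same log2 fold change, -0.51, at an adjusted p of 2.65e-06. The log2 fold change stayed between -0.68 and -0.49 under every alternative tried, and the adjusted p between 2.65e-06 and 0.612. The authors' deposited table has a log2 fold change of -0.51 for it, at an adjusted p of 3.29e-06.

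Rpl14, a structural protein of the large subunit, had 635, 729, 613 and 687 CPM in IL-10/Fc, against 925 and 804 CPM in PBS. Its log2 fold change was -0.38 (SE 0.11, unadjusted p = 0.0119, adjusted p = 0.272 by edgeR). Rpl4, whose protein reaches into the exit tunnel through which the nascent chain leaves, had 1995, 2194, 1957 and 1955 CPM in IL-10/Fc, against 2472 and 2382 CPM in PBS. Every IL-10/Fc library was below both PBS libraries for either gene, and Rpl4 was the most abundant transcript of the family. The log2 fold change of Rpl4 was -0.26 (SE 0.08, unadjusted p = 0.0173, adjusted p = 0.296 by edgeR).

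The stalk of the large subunit, which recruits the elongation factors, is built from Rplp0 as its anchor and copies of Rplp1 and Rplp2. Rplp0 had 1805, 2036, 1737 and 1941 CPM in IL-10/Fc, against 2643 and 2145 CPM in PBS. Its log2 fold change was -0.35 (SE 0.11, unadjusted p = 0.0214, adjusted p = 0.314 by edgeR), and -0.19 without PBS replicate 1. Rplp1 had 840, 875, 722 and 864 CPM in IL-10/Fc, against 875 and 837 CPM in PBS. Rplp2 had 378, 393, 334 and 367 CPM in IL-10/Fc, against 371 and 357 CPM in PBS. Of the stalk genes, the groups were apart for Rplp0 alone, and the fold changes of Rplp1 and Rplp2 were -0.05 (SE 0.10) and 0.02 (SE 0.10) on the log2 scale. Whether Rplp0 differed from the other two was not tested.

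Among small subunit genes the lowest values were those of Rps2 and Rps26. Rps2, a protein near the entry of the message channel, had 752, 774, 740 and 787 CPM in IL-10/Fc, against 1260 and 866 CPM in PBS. PBS replicate 1 carried most of that gap: the log2 fold change of -0.48 (SE 0.15, unadjusted p = 0.0167, adjusted p = 0.292 by edgeR) was -0.18 without it and -0.72 without PBS replicate 2. Rps26, which contacts the message at the exit side of the channel, had 548, 557, 563 and 630 CPM in IL-10/Fc, against 733 and 671 CPM in PBS. The groups did not overlap, and the log2 fold change of Rps26 was -0.29 (SE 0.10, unadjusted p = 0.0206, adjusted p = 0.310 by edgeR). Other genes lower at an unadjusted p under 0.05 included Rpl6, Rps3a1, Rpl6l and Rps18, with log2 fold changes of -0.25, -0.23, -0.26 and -0.25. Rpl6l is protein coding in the deposited table and a processed pseudogene in GENCODE M21. It had 208 to 230 CPM in IL-10/Fc, against 275 and 246 CPM in PBS. Rpl6 had 796 to 879 CPM in IL-10/Fc, against 1035 and 951 CPM in PBS. Whether Rpl6l was counted from reads of Rpl6 was not tested, so Rpl6 and Rpl6l may not be separate among the 11 lower genes.

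On the higher side none of the 82 genes reached an unadjusted p of 0.05. Rps27, a zinc finger protein of the small subunit, had 1150, 1278, 883 and 1085 CPM in IL-10/Fc, against 922 and 925 CPM in PBS. IL-10/Fc replicate 3 lay below both PBS libraries, and the log2 fold change was 0.25 (SE 0.15, unadjusted p = 0.144, which does not pass). Rpl39, a very small protein that lines the exit tunnel, had 186, 176, 165 and 166 CPM in IL-10/Fc, against 159 and 159 CPM in PBS. All 4 IL-10/Fc libraries were above PBS, by a log2 fold change of 0.12 (SE 0.10, unadjusted p = 0.243). Rpl17, whose protein surrounds the exit of that tunnel, had 252, 259, 249 and 275 CPM in IL-10/Fc, against 243 and 226 CPM in PBS, a log2 fold change of 0.14 (SE 0.09). Rpl37a and Rpl23 had log2 fold changes of 0.16 and 0.13. By library size alone Rps27 had a log2 fold change of 0.08, and those of Rpl39, Rpl17, Rpl37a and Rpl23 were below 0, from -0.05 (Rpl39) to -0.01 (Rpl37a).

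The sequences at the starts of these genes are shown because the TOP tract is the feature that couples their messages to mTORC1, and because genes on the lower and the higher side can be set side by side there. Of the 82 genes, 61 had an entry in the RefSeq promoter table (build GRCm38.p6; 250 bases before to 50 after the annotated start). Each line gives 30 bases, 5′ to 3′ on the strand of the gene, with the longest run of C and T within 50 bases of the annotated start in capitals; the first 5 had log2 fold changes of -0.48 to -0.26 and the last 3 of 0.12 to 0.25.
Rpl14 (chr9:120571501-120571530, plus): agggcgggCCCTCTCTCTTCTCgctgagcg
Rpl4 (chr9:64173405-64173434, plus): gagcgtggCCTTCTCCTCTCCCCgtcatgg
Rplp0 (chr5:115559466-115559495, plus): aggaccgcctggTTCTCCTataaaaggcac
Rps2 (chr17:24720083-24720112, plus): aaattgtcccttccgcggcgCCTCCCTCTT
Rps26 (chr10:128626485-128626514, minus): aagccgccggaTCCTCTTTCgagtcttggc
Rps27 (chr3:90213632-90213661, minus): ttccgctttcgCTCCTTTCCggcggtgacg
Rpl37a (chr1:72711274-72711303, plus): cgcattgcgTCCCTTCCTCTTCggacttgg
Rpl39 (chrX:37085173-37085202, minus): gttcttccggtcccggCCTTTCTCTTCTCC
The runs were 14, 15, 7, 10 and 9 bases long in the first 5 and 9, 13 and 14 bases in the last 3, so long and short runs occurred on both sides. Counted from the annotated start, those of Rpl14 (-8 to 5) and Rps27 (-2 to 6) span it. The other runs begin after it, from base 3 in Rps26 to base 40 in Rps2. The runs are therefore not shown to be TOP tracts. In Rps2 and Rpl39 the run ends at the edge of the stretch searched. The annotated start need not be the base at which transcription began in these cells, which the counts do not show.

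A run of at least 8 C or T bases within 50 bases of the start, on the strand of the gene, was present in 49 of the 61 ribosomal protein promoters (80.3%), against 9650 of 27025 promoters in the table (35.7%). It was present in 13 of the 17 genes whose IL-10/Fc libraries lay below both PBS libraries and in 36 of the other 44. The 7 letters CCGGAAG, the core recognised by ETS family factors, occurred on either strand in 25 of 61 promoters (41.0%), against 9.12% of all. AAGATGGC, the core of the YY1 motif, occurred in 5 of 61 (8.20%), against 2.88% of all, and TATAAA in 6 of 61 (9.84%), against 14.2% of all, both strands searched for either. An ETS core on the opposite strand contributes C and T letters and can thus overlap a pyrimidine run, and the first 2 motifs can share the letters AAG. These are matches of letters in a window, and the runs of the 2 groups of genes were not compared by a test.

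Other ribosomal proteins with well-described roles lay between -0.23 and -0.01 on the log2 scale, none at an unadjusted p under 0.05. Rps6, the target of the S6 kinases downstream of mTORC1, had 872, 936, 841 and 953 CPM in IL-10/Fc, against 995 and 962 CPM in PBS. The groups did not overlap, though by a small margin, and the log2 fold change was -0.12 (SE 0.09, unadjusted p = 0.216). Rpl5 and Rpl11, which together bind the smallest ribosomal RNA and can inhibit the p53 ligase MDM2, had log2 fold changes of -0.01 (SE 0.07) and -0.04 (SE 0.09). Rpl5 had 1064, 1106, 1126 and 1134 CPM in IL-10/Fc, against 1127 and 1101 CPM in PBS, among the most even of all. Rps19, mutated in human Diamond-Blackfan anaemia, had 872, 953, 754 and 906 CPM in IL-10/Fc, against 1061 and 982 CPM in PBS, with a log2 fold change of -0.23 (SE 0.11, unadjusted p = 0.0854) and groups that did not overlap. Rpl10, which joins late and completes the large subunit, lay at -0.10 (SE 0.09) on the log2 scale, and Rpl10a, part of another mobile stalk, at -0.19 (SE 0.09). The groups overlapped for Rpl10 and did not for Rpl10a, at 268 to 287 CPM in IL-10/Fc and 305 to 331 CPM in PBS.

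Genes with roles beyond the ribosome and paralogs lay on both sides of 0. Rpl22, needed for the development of mouse alpha-beta T cells, had 143, 141, 115 and 122 CPM in IL-10/Fc, against 153 and 130 CPM in PBS, a log2 fold change of -0.12 (SE 0.14). Its paralog Rpl22l1 had 91.1, 107, 108 and 106 CPM in IL-10/Fc, against 95.5 and 100.2 CPM in PBS, a log2 fold change of 0.08 (SE 0.12). The groups overlapped for both paralogs. For Rps27l, a paralog of Rps27 known as a p53 target, the log2 fold change was 0.06 (SE 0.16), and for Rpl7l1, a paralog of Rpl7, -0.09 (SE 0.16). Rpl39l, known in mice for its role in sperm formation, stayed at 3.25 CPM or less and was at 0 in IL-10/Fc replicate 4. Rpl38, which supports translation of Hox messages in mouse embryos, had 385, 373, 316 and 379 CPM in IL-10/Fc, against 383 and 292 CPM in PBS, a log2 fold change of 0.11 (SE 0.14). Rpl13a, which in human monocytes silences inflammatory messages, was counted at 19.7 to 26.4 CPM in IL-10/Fc and 21.1 to 25.2 CPM in PBS, far below its neighbours in the ribosome. Rpsa, Rps27a and Rps29 had log2 fold changes of -0.09, -0.08 and -0.01. Rps4x, the X-linked small subunit gene, lay below both PBS libraries in every IL-10/Fc library, with a log2 fold change of -0.16 that was -0.06 without PBS replicate 1 and -0.26 without PBS replicate 2. That of Rps3 was -0.12, with overlapping groups, and was -0.01 without PBS replicate 1, -0.07 without IL-10/Fc replicate 3 and -0.22 without PBS replicate 2.

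Further genes that supply ribosomal or ribosome-bound proteins fall outside the symbol rule. Fau, a fusion of a ubiquitin-like protein with a small subunit protein, had 1433, 1553, 1172 and 1427 CPM in IL-10/Fc, against 1208 and 1178 CPM in PBS, a log2 fold change of 0.23 (unadjusted p = 0.113). Rpl36al, a protein-coding copy of Rpl36a, had 186, 189, 171 and 195 CPM in IL-10/Fc, against 142 and 160 CPM in PBS. All its IL-10/Fc libraries were above both PBS libraries, with a log2 fold change of 0.29 (unadjusted p = 0.0291, adjusted p = 0.343 by edgeR), so it would be the sole gene on the higher side at an unadjusted p under 0.05 had the rule included it. Rps27rt, a protein-coding copy of Rps27, had a log2 fold change of 0.24 (unadjusted p = 0.154) with overlapping groups, and Rack1, a scaffold on the small subunit, one of 0.05. IL-10/Fc replicate 3 was below both PBS libraries for Fau, as it was for Rps27.

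Within groups the same library was often the lowest or the highest for many ribosomal protein genes. IL-10/Fc replicate 3 was the lowest of its group for 58 of 82 genes, replicate 2 the highest for 38 and replicate 4 the highest for 34. PBS replicate 1 was above PBS replicate 2 for 62 of 82. The matching shares over all genes are not given, and whether this order was particular to the family was not tested. The median SD of log2 CPM over the IL-10/Fc libraries was 0.0999 for these genes, against 0.151 for other protein-coding genes with a mean of at least 100 CPM. Between the PBS libraries the median absolute log2 difference was 0.142 for the ribosomal protein genes, against 0.271 for those others. In both groups the family had less spread than those other abundant genes. The comparison genes were not matched to the level of the family, whose median was 522 CPM, and the part of abundance in this was not tested.

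**Figure D3:**
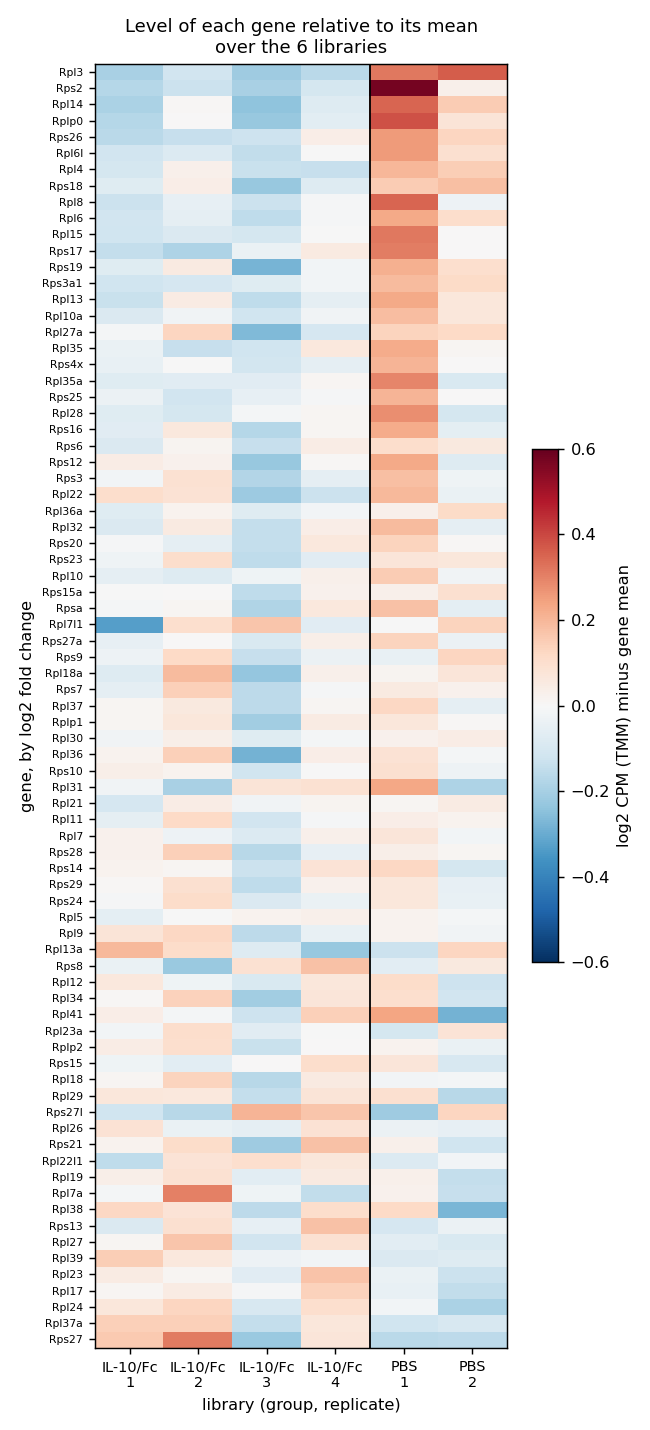
Log2 TMM-scaled CPM of 79 ribosomal protein genes (rows, ordered by log2 fold change) in the 4 IL-10/Fc libraries and the 2 PBS libraries (columns), each as the difference from the gene's mean over the 6 libraries; Rpl39l and 2 others are not drawn. PBS replicate 1 is highest in most of the upper rows, and IL-10/Fc replicate 3 is lowest of its group for 58 of 82 genes.

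Levels among the genes spanned a wide range in spite of the fixed proportions of the proteins. Mean TMM-scaled levels went from 1.55 CPM (Rpl39l) to 2159 CPM (Rpl4), with a median of 522 CPM, and 76 of 82 genes had at least 100 CPM. Per kilobase of the principal GENCODE M21 transcript, the highest were Rps27 at 3186 CPM in IL-10/Fc and 2676 CPM in PBS, Rpl41 at 2571 CPM in IL-10/Fc and 2542 CPM in PBS, and Rpl32 at 2559 CPM in IL-10/Fc and 2753 CPM in PBS. Rpl41 encodes the shortest protein of the ribosome; its levels were 1141, 1104, 1020 and 1229 CPM in IL-10/Fc, against 1308 and 914 CPM in PBS, with the PBS libraries on either side of the others. The 3 most abundant genes after Rpl4 and Rplp0 overlapped between groups. Rps3, at the entry of the message channel, averaged 1351 ± 103 CPM in IL-10/Fc and 1465 ± 149 CPM in PBS. Rps14, near the platform of the small subunit, averaged 1328 ± 80.3 CPM in IL-10/Fc and 1342 ± 151 CPM in PBS, and Rpl32 averaged 1323 ± 89.0 CPM in IL-10/Fc and 1423 ± 170 CPM in PBS (SD, n = 4 and 2). The lowest apart from Rpl39l was Rpl13a, at 22.2 CPM per kilobase in IL-10/Fc and 22.1 in PBS. The order of these levels rests on how reads were divided between each gene and its copies, given next.

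Mouse ribosomal protein genes have many processed pseudogenes, whose sequences are close to the messages. The deposited list held 183 pseudogenes named after 56 of the 82 genes. The share that follows covers all 185 pseudogenes with names beginning in Rpl or Rps, these 183 included. They took 17.5% to 17.6% of the counts of genes and pseudogenes together in IL-10/Fc and 17.4% to 17.5% in PBS. For 5 genes (Rpl31, Rpl23a, Rpl36a, Rpsa and Rpl10a) the pseudogenes held more counts than the gene itself, so levels of these genes are uncertain. Pseudogenes were found by name, so those named otherwise were not counted, such as Rps3a2 and Rps3a3 for Rps3a1 or Rpl37rt for Rpl37. Rpl37rt had 271 to 327 CPM over the libraries, beside 399 to 486 CPM for Rpl37. Levels of genes other than these 5 may thus be uncertain as well. The fold changes were similar on both: over the 52 genes whose pseudogenes had a mean of at least 5 CPM, the median absolute difference between the log2 ratio on the gene and on its pseudogenes was 0.02, and 48 of 52 lay within 0.1. The log2 ratio of Rpl3 was -0.51 on the gene and -0.52 on its 2 pseudogenes. Across the 52 genes Pearson's r was 0.94 and Spearman's rho 0.91; the points share libraries and reads, so these describe the counting and are no independent measurement.

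**Figure D4:**
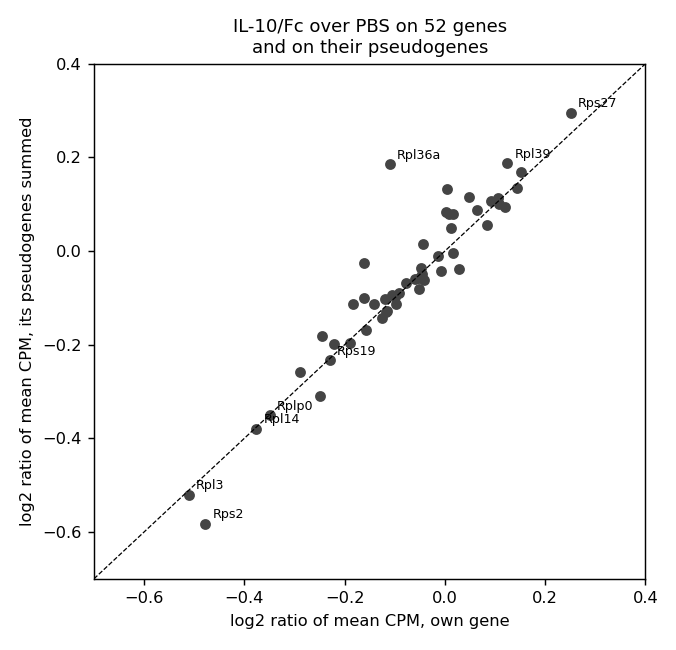
Log2 ratio of mean TMM-scaled CPM, IL-10/Fc over PBS, on each of 52 ribosomal protein genes (horizontal) and on the sum of its pseudogenes (vertical), with the line of equal values dashed. Most points lie on the line, 48 of 52 within 0.1 of it; Rpl36a lies farthest, by 0.30.

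Genes with longer coding sequences had lower fold changes. Over the 81 ribosomal protein genes with a coding length in GENCODE M21, Spearman's rho between log2 fold change and coding length was -0.39. With transcript length rho was -0.37 over 82 genes, -0.39 in the large subunit and -0.35 in the small one, and it was -0.42 without PBS replicate 1 and -0.26 without PBS replicate 2. Among the 23 genes with at least 600 coding bases the median was -0.19 on the log2 scale, and 20 of them were below 0. Among the 58 shorter ones it was -0.04, and 33 of them were below 0. The length of 600 bases was chosen after the values were seen, and all genes share the same 6 libraries.

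Other abundant genes showed a gradient of the same sign. Over 1453 other protein-coding genes with a mean of at least 100 CPM, rho between log2 fold change and coding length was -0.25, while over all 11224 protein-coding genes with a length it was -0.02. Their median log2 change was 0.02 with at least 600 coding bases (974 genes), and 0.20 with fewer (479 genes). The ribosomal protein genes lay below these medians in both classes, at -0.19 in the long class and -0.04 in the short one. The part of RNA length or RNA quality in these values was not tested.

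**Figure D5:**
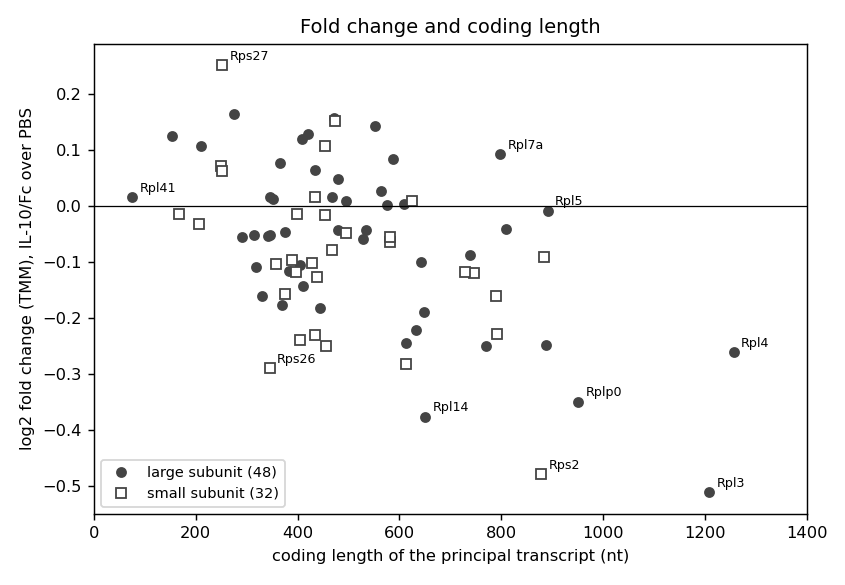
Log2 fold change of IL-10/Fc over PBS under TMM (vertical) against the coding length of the principal transcript in bases (horizontal) for 48 large subunit genes (filled circles) and 32 small subunit genes (open squares); Rpl39l and Rpl6l are not drawn. The longest, Rpl4 and Rpl3, lie at -0.26 and -0.51, and Rps27, with 252 coding bases, lies highest at 0.25.

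Genes that work with the ribosome were read from lists of translation factors, ribosome assembly factors and regulators; none of their members passed an adjusted p of 0.05 by edgeR. Over all genes tested, 50.7% had a log2 fold change below 0, and at an unadjusted p under 0.05 5.52% were lower and 7.20% higher. Of the 6 elongation factor genes, 6 had log2 fold changes below 0, with a median of -0.23. The numbers at an unadjusted p under 0.05 were 2 lower and 0 higher, against 5.52% and 7.20% of all genes. Eef1a1, which carries aminoacyl-tRNA to the ribosome and is itself a TOP transcript, had 2738, 2900, 2488 and 2452 CPM in IL-10/Fc, against 3112 and 3273 CPM in PBS. The groups did not overlap, and its log2 fold change was -0.27 (SE 0.10, unadjusted p = 0.0273). Eef1b2, an exchange factor for it, had a log2 fold change of -0.21 (SE 0.08).

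Among 28 initiation factor genes, 14 were below and 14 above 0 with a median of -0.02, and 4 were lower (5.52% of all genes) and 1 higher (7.20% of all genes) at an unadjusted p under 0.05. Eif3b and Eif3d, subunits of the scaffold that loads the small subunit with the message, had log2 fold changes of -0.82 (SE 0.14) and -0.41 (SE 0.11). Eif3b had 93.2, 92.9, 72.6 and 92.7 CPM in IL-10/Fc, against 165 and 145 CPM in PBS. In the authors' deposited table both passed, with adjusted p of 0.000188 (Eif3b) and 0.0243 (Eif3d). The 16 other TOP transcripts, which include 4 of the elongation factor genes, had a median of -0.22, with 3 lower and 2 higher at an unadjusted p under 0.05, beside 5.52% and 7.20% of all genes. The list also shares Eif3h, Eif3e, Eif3f and Eif4b with the initiation factors and Npm1 with the ribosome biogenesis genes. Its 3 lower genes, Npm1, Eef1a1 and Eef1b2, are all counted in another list too, so the lists are not separate evidence. Npm1, a nucleolar chaperone of ribosome assembly, had 474, 473, 503 and 472 CPM in IL-10/Fc, against 613 and 592 CPM in PBS, a log2 fold change of -0.33 (SE 0.08), and passed in the authors' deposited table at an adjusted p of 0.0127. Vim, the intermediate filament vimentin, had 641, 453, 485 and 549 CPM in IL-10/Fc, against 404 and 273 CPM in PBS, a log2 fold change of 0.65 (SE 0.21) that was 0.40 without PBS replicate 2. TOP transcripts were thus found on both sides of 0.

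The lists of genes for making ribosomes had medians below that of all genes tested (-0.01). Of 33 ribosome biogenesis genes tested, 22 were below 0 (50.7% of all genes) with a median of -0.14, and 6 were lower (5.52% of all genes) and 0 higher (7.20%) at an unadjusted p under 0.05. Dkc1, the pseudouridine synthase of the H/ACA particles, lay at -0.72 (SE 0.23) on the log2 scale, at -0.31 without PBS replicate 2 and at -1.04 without PBS replicate 1. All 14 genes of the RNA polymerase I machinery, which transcribes ribosomal RNA, were below 0 (50.7% of all genes) with a median of -0.31, and 0 had an unadjusted p under 0.05 in either direction (5.52% and 7.20% of all genes). For Polr1c, a polymerase subunit, the log2 fold change was -0.41 (SE 0.18), and for Taf1d, a subunit of its selectivity factor, -0.36 (SE 0.20). The value of Taf1d rests on PBS replicate 1, at 60.2 CPM: PBS replicate 2, at 38.7 CPM, lay within the 35.5 to 42.6 CPM of IL-10/Fc, and the log2 fold change was -0.0087 without PBS replicate 1 and -0.65 without PBS replicate 2. Of 14 genes of mTORC1 and the control of TOP translation, 10 were below 0 (50.7% of all genes) with a median of -0.38, 1 was lower at an unadjusted p under 0.05 (5.52% of all genes) and 0 were higher (7.20%). That gene was Tsc1, an inhibitor of mTORC1, with 6.40, 5.37, 9.83 and 4.22 CPM in IL-10/Fc, against 11.8 and 13.1 CPM in PBS. Mtor, the kinase of the complex, had 7.31, 7.81, 13.8 and 10.7 CPM in IL-10/Fc, against 19.2 and 13.8 CPM in PBS, a log2 fold change of -0.74 (SE 0.33, unadjusted p = 0.0633) that was -0.48 without PBS replicate 1. Proliferation markers (12 of 12) summed to 950 to 1445 CPM in IL-10/Fc and 1350 to 1478 CPM in PBS. Of the 12, 9 were below 0 (50.7% of all genes) and 3 above, with a median of -0.37. At an unadjusted p under 0.05, 3 were lower (5.52% of all genes) and 0 higher (7.20%). The part of proliferation in the levels of the lists above was not tested.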

How the data were processed

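RNA was measured in 6 Smart-Seq2 libraries, a full-length, poly(A)-primed protocol without molecular identifiers or strand information. Reads of overlapping or near-identical genes can therefore be divided between them. The authors deposited whole-number counts per gene, used as given, and a table with log2 fold changes and standard errors, p-values, a Wald score and mean normalized counts, a signal that was not used. TopHat2 2.1.1 with Bowtie2 2.2.9, Trimmomatic, DESeq2, Cuffdiff, Cufflinks 2.2.1 and build GRCm38 (mm10) are named per the submitters' processing notes; for the read counter, no name is given in the sources. The columns of the series table were matched to samples through the headers of the sample files, and all 6 sample files equalled it.

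Counts were fitted with edgeR 4.0.16 (R 4.3.3): filterByExpr by group, TMM, robust glmQLFit and a two-sided glmQLFTest on group alone, Benjamini-Hochberg over the 15477 genes tested. DESeq2 1.42.0 was an alternative. The script was tested on simulated data. The biological coefficient of variation was 0.543. Chi-square over degrees of freedom was 45.1 to 86.3 among IL-10/Fc pairs and 132 for the PBS pair, measured against counting error alone, which amplified reads without identifiers exceed in any case; every library was counted as 1 replicate. A library's floor of 3 counts was 0.0812 to 0.112 CPM, counting error only. By sample title PBS and IL-10/Fc share replicate numbers 1 and 2 only, and deviations of same-numbered libraries correlated at 0.05. The headers of the count columns number the same PBS libraries 2 and 3 instead. The correlation followed the titles and covers 2 pairs, so it cannot decide whether libraries were paired. Samples were not treated as paired.

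Alternatives were library size only, DESeq2 size factors, TMM without the ribosomal protein genes, no filter, a filter of 20 CPM in 2 libraries, a block on replicate number, and leaving out each library. The genes, lists and tests were chosen with earlier results of these data known. Named with values were the 6 genes with the smallest p in each direction, the 3 most abundant of each subunit, the stalk genes, paralogs, a set of single genes, genes called by the authors and 2 of each list; other genes were named after their values were seen. Lengths came from GENCODE M21 and promoters from RefSeq. No protein sequences were used here, and some genes under the naming rule are not reported here.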

Additional observations from a re-analysis of the deposited data

Results flagged for a closer look

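Single IL-10/Fc libraries lay far from the other 3 for 5 of 50 groups of values examined, as the gap to the nearest library over the range of the group, compared with Dixon's critical value; chance gives about 1 in 20. The gap was 0.86 for Rpl22l1 (replicate 1 low), 0.831 for Rpl38 (replicate 3 low) and 0.834 for Rpl4 (replicate 2 high). It was 0.98 for Eif3b (replicate 3 low) and 0.938 for Npm1 (replicate 3 high).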

How the results depend on the processing

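No ribosomal protein gene passed an adjusted p of 0.05 by edgeR in any setting but a filter of 20 CPM in 2 libraries, where 1 did (Rpl3, adjusted p = 0.0459), as 1 did by the DESeq2 Wald test. By library size alone 35 genes were lower at an unadjusted p under 0.05, the medians were -0.23 over all, -0.22 for the large and -0.27 for the small subunit, and the log2 ratio of summed levels was -0.29. Leaving out 1 library gave 1 to 19 lower and 0 to 2 higher genes at an unadjusted p under 0.05, the 2 higher without IL-10/Fc replicate 3 and 1 without PBS replicate 2. The log2 ratio of the subunit ratios then ran from -0.041 to -0.0051, that of the share of counts from -0.37 to -0.19, the median from -0.10 to -0.01 over all, from -0.08 to 0.01 for the large and from -0.14 to -0.04 for the small subunit. With 1 PBS library left, it is assumed to vary like the others. Both the lowest and the highest count of lower genes come from such fits, so no conclusion is drawn from them. For fits that leave out a library, the share of all genes called is not given, so these counts cannot be set against it. Blocking on title replicate number, a pairing the check could not decide, left 1 gene lower at an unadjusted p under 0.05. The share of all genes is not given for it either. The medians with the block were -0.03 over all, 0.00 (large) and -0.06 (small), and the difference then rests on replicates 1 and 2. Depth limits only Rpl39l, at 0 in 1 library.

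Of 45 named genes 20 changed sign somewhere. Leaving out 1 library moved some of them farther from 0 than in the main fit, as listed below, and the cause was not tested. In the main fit all 20 were near 0. By library size these had log2 fold changes of -0.16 (Rpl13a), -0.029 (Rpl17), -0.093 (Rpl22l1), -0.044 (Rpl23), -0.0078 (Rpl37a), -0.069 (Rpl38), -0.047 (Rpl39), -0.16 (Rpl41), -0.16 (Rplp2) and -0.10 (Rps27l). With the block they were 0.0020 (Rpl11), 0.015 (Rpl22), 0.0024 (Rplp1), 0.0070 (Rps14), -0.10 (Rps27l) and 0.041 (Rps29), and with the 20 CPM filter -0.015 (Rpl13a), -0.0067 (Rpl41) and -0.0044 (Rplp2). Without 1 library they ran from -0.12 to 0.14 (Rpl13a), -0.23 to 0.0059 (Rpl22), -0.22 to 0.021 (Rpl32), -0.076 to 0.32 (Rpl38), -0.22 to 0.30 (Rpl41), -0.025 to 0.010 (Rpl5), -0.15 to 0.0022 (Rpl7l1), -0.084 to 0.0085 (Rplp1), -0.016 to 0.063 (Rplp2), -0.13 to 0.10 (Rps14), -0.16 to 0.0084 (Rps27a), -0.10 to 0.24 (Rps27l), -0.072 to 0.045 (Rps29) and -0.20 to 0.031 (Rpsa).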
